A study of Mus musculus with 65 samples.

Results

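The 251 regions described here carried more H3K27me3, the trimethylated form of histone H3 laid down by Polycomb, in embryoid bodies at day 6 of retinoic acid differentiation than in mouse embryonic stem cells at day 0. They were taken from the 10491 regions of the authors' deposited H3K27me3 differential table, of which they make up 2.39%. A region was included when log2 of its mean scaled reads plus 1 was at least 0.3 higher at day 6 than at day 0, and when both day 6 libraries lay above both day 0 libraries. The regions were thus chosen by the H3K27me3 values of these 4 libraries, and those values are given below as a description and carry no test. The same rule turned round was met by 2965 regions (28.3%), so losses outnumbered gains in this table at the deposited scaling. The balance of losses and gains under another scaling of the libraries was not tested.

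Polycomb repressive complex PRC2 trimethylates lysine 27 of histone H3, and the mark is read by PRC1 and found over silent genes, most often where the gene start is rich in CG dinucleotides. In embryonic stem cells it covers developmental regulators such as the HOX genes, while genes that hold the cells in the pluripotent state are active and free of it. H3.3 is a histone H3 variant that is placed into chromatin outside replication, mainly at active genes and regulatory elements, and its lysine 27 can be trimethylated as well.

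Chromatin immunoprecipitation with sequencing (ChIP-seq) was done on wild-type cells, kept with leukaemia inhibitory factor (LIF) on gelatin at day 0 or grown for 6 days as rotating embryoid bodies without LIF and with 10 µM all-trans retinoic acid. Antibodies against H3K27me3, H3.3K27me3 (a custom antibody), H3.3 and H3 were used on formaldehyde-fixed, sonicated chromatin, in 2 replicates for each day. Polyadenylated RNA was sequenced in 2019 from wild-type cells at days 0, 3 and 6 (2 libraries each), and in 2020 at days 0 and 6 from 3 lines. These were wild type, an H3.3A knockout and H3.3K27A, with 2 libraries per line and day apart from wild type at day 0, which has 1. H3.3K27A replaces the lysine that PRC2 methylates by alanine. How many clones stand for each edited line is not given in the labels, and the ChIP libraries cover wild type only.

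Of the 251 regions, 123 overlapped the start of an annotated gene widened by 1 kb on both sides, and 164 genes had such a start. The start itself lay inside the region for 150 of these genes and at most 1 kb beyond its edge for the rest, and all 164 are called genes at gaining regions. The 250 bases before the start are printed for 8 of these genes that the results name: Zfp296 has the largest gain, Utf1, Klf4, Sox2, Fgf4, Nr5a2 and Tdgf1 are genes of the pluripotent state, and Inhbb is a signalling ligand near the top of the list. The sequences are the RefSeq promoters of build GRCm38, 5′ to 3′ on the gene's own strand, and capitals mark CG dinucleotides.
Zfp296, chr7:19577037-19577286, plus strand: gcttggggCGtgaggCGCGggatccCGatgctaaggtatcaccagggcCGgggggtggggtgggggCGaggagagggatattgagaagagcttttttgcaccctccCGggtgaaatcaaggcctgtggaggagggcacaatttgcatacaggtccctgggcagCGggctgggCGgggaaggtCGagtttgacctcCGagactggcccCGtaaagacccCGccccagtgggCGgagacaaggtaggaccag
Utf1, chr7:139943606-139943855, plus strand: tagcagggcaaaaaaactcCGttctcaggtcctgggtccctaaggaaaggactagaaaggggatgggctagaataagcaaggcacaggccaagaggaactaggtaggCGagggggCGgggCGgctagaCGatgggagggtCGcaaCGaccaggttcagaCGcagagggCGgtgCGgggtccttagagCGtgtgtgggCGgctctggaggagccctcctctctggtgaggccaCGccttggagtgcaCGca
Klf4, chr4:55532476-55532725, minus strand: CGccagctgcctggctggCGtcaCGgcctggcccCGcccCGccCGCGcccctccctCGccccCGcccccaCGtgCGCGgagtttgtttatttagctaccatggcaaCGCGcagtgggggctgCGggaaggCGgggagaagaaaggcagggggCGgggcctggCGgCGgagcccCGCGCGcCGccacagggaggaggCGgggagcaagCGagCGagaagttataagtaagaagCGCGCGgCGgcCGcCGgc
Sox2, chr3:34649745-34649994, plus strand: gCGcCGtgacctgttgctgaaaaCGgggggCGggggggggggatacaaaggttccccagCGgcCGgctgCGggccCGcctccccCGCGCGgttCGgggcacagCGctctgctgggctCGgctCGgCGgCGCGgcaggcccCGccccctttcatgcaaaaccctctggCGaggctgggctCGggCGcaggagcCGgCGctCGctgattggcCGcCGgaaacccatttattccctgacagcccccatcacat
Inhbb, chr1:119422249-119422498, minus strand: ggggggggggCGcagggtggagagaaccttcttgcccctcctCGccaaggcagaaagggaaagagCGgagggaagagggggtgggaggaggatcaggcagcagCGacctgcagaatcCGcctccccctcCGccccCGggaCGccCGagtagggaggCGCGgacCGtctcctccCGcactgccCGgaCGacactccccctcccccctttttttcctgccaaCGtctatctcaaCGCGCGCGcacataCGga
Fgf4, chr7:144861136-144861385, plus strand: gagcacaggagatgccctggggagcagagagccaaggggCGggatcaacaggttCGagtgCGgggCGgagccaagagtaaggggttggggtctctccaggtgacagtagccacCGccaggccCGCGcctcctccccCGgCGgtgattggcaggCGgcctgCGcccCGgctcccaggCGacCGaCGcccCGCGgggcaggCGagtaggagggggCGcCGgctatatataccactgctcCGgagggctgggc
Nr5a2, chr1:136960449-136960698, minus strand: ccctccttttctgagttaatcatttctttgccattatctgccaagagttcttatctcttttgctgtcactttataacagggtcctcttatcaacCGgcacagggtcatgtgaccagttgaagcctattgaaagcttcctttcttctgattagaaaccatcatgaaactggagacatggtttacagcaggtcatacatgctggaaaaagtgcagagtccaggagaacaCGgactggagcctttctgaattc
Tdgf1, chr9:110946159-110946408, minus strand: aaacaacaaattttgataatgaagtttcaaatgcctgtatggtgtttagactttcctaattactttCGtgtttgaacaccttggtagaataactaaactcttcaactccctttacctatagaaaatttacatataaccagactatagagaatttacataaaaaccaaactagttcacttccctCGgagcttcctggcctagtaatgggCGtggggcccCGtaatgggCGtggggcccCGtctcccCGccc

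These promoters differ widely in CG content. Klf4 holds 32 CG dinucleotides in its 250 bases and Sox2 holds 27. Fgf4 and Inhbb hold 21 each, and Zfp296 and Utf1 hold 14 each. Tdgf1 holds 7 and Nr5a2 holds 2, with a GC content of 42.0% and 43.2%, so genes with CG-poor promoters were among those at gaining regions too. The sequences of Klf4 and Nr5a2 lie just outside their regions, whose edges are 416 and 143 bases from the gene start. Of the 164 genes, 112 had an entry in the RefSeq promoter table. Their promoters held a median of 12.5 CG dinucleotides, against 10 in all 18152 promoters of the table and 16 in those at regions that lost the mark. At least 10 CG dinucleotides were present in 72 of the 112 (64.3%), against 50.5% of all promoters.

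Letters bound by factors of the pluripotent state were searched on both strands of the same 250 bases. The octamer ATGCAAAT, the letters read by POU factors such as OCT4, was found in 2 of 112 promoters (1.79%) against 1.59% of all. Zfp296 is among them, and there it stands on the reverse strand (as atttgcat) 111 bases before the start. TCAAGGTCA, read by ESRRB, was found in 0 promoters against 0.32% of all. GGGTGTGG, read by KLF4, was found in 3 (2.68%) against 3.4%, and TTCNNNGAA, read by STAT3, in 5 (4.46%) against 6.88%. These shares are close to or below those of all promoters, and they describe letters in this window only.

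The depth of the data sets how finely the regions can be compared. The H3K27me3 libraries held between 50.09 and 55.59 M tags, and those of the other antibodies between 30.45 and 74.23 M. The RNA libraries held between 6.97 and 12.71 M reads in genes in 2019, and between 14.27 and 22.03 M in 2020. The 6 stem cell markers (Pou5f1, Nanog, Sox2, Zfp42, Esrrb and Fgf4) summed to 5173 and 4778 CPM (counts scaled to library size) at day 0 of 2019, and to 196.3 and 186.3 at day 6, with none of them at 0. Over the same days 6 neural markers went from 236.6 and 237 to 1216 and 1065 CPM, and 6 endoderm markers from 4.178 and 4.779 to 468.7 and 446.3 CPM. The fibroblast markers went from 14.46 and 15.28 to 909.8 and 1093 CPM. Mesoderm markers went from 4.178 and 3.842 to 120.7 and 140.4 CPM, and trophoblast markers from 3.375 and 3.842 to 63.94 and 81.1. Those of endothelium and blood fell from 81.64 and 105.1 to 46.52 and 57.69 CPM. In 2020 H3f3a, which encodes H3.3A, stood at 119 and 114 CPM in wild type at day 6, at 20.9 and 23.1 in the knockout and at 20.4 and 20.4 in the H3.3K27A line, so it was low in both edited lines. The labels do not say which H3.3 gene carries the K27A change, nor whether that line also lacks H3.3A.

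The gaining regions covered 2.98 Mb in all. Their median length was 9.96 kb, shorter than the 15.6 kb of all regions, with a range from 1.755 to 45.687 kb. Their H3K27me3 density was low at day 0, with a median of 22.7 scaled reads per kb against 29.9 over all regions and 38.9 over regions that lost the mark. At day 6 it was 32.0 in the gaining regions, 27.2 over all regions and 27.3 over those that lost it. Summed over the 251 regions, the scaled reads were 72245 and 71687 at day 0 and 105348 and 98536 at day 6. The days are apart in these sums, as the rule requires of every region.

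Most gains were modest. The median log2 gain was 0.40, with a range from 0.30 to 1.65. A gain of 1 or more was seen in 17 regions, a gain of 0.5 to 1 in 73 and a smaller one in 161. Just inside the threshold lay a region nearest to Anxa1 (chr19:19761613-19798788), with 806 and 870.9 scaled reads at day 0 and 1042 and 1024 at day 6. Just outside it lay a region nearest to Igf1 (chr10:87736766-87745031), with 171 and 184.9 at day 0 and 202.6 and 236 at day 6. The median log2 change of all 10491 regions was −0.13. When the medians of the libraries were set equal, 1028 regions passed the rule, including all 251, so the number of gaining regions depends on how the libraries are scaled. When each of the 4 libraries was left out in turn, 283 to 315 regions passed, and 189 to 228 of the 251 were among them.

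The largest gain was at Zfp296, which encodes a zinc finger protein of stem cells, in a 4.3 kb region (chr7:19574961-19579260). Its scaled reads were 71 and 78.8 at day 0 and 270.4 and 204.0 at day 6. The region ranked next (chr11:117965853-117969060) holds no gene start within 1 kb and lies 1276 bases from that of Socs3, a feedback inhibitor of LIF signalling. It had 47 and 42.8 scaled reads at day 0 and 157 and 120.4 at day 6. In both regions the day 6 libraries lie above the day 0 libraries, as the rule requires.

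Ranks 3 to 6 hold a chromatin cofactor gene, a microRNA cluster and signalling genes. At Mllt6 (chr11:97660001-97662470) the scaled reads were 47 and 26.3, then 112.5 and 106.8, in a region whose edge is 652 bases from the gene start. The fourth region (chr6:30170095-30186986) holds the starts of the host transcript Mirc35hg and of BB283400, while Mir183 and Mir96 start 358 and 544 bases beyond its edge, and it went from 306 and 340.6 to 902 and 862. At Inhbb (chr1:119416064-119424379), which encodes the beta-B chain of activins and inhibins, they were 166 and 173 and then 495 and 421.5. Spry4, a feedback inhibitor of FGF signalling, lies in a region (chr18:38586065-38605051) that also holds the start of Arhgap26. That region went from 335 and 321 to 919 and 801. A second gaining region, nearest to Spry4 as well (chr18:38622978-38647481), lies 21361 bases from the closest gene start and went from 471 and 515 to 880.0 and 766. The Spry4 locus therefore held 2 of the 251 regions.

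Ranks 7 to 10 were Utf1, Etv4, Luzp1 and Smagp. Utf1, a chromatin factor of undifferentiated cells (chr7:139941403-139949074), went from 137 and 118 to 345 and 305. Etv4, an ETS factor induced by FGF signalling (chr11:101771730-101793400), went from 402 and 430.1 to 1089 and 928. Luzp1 (chr4:136458570-136465076) went from 115 and 103 to 266 and 262, and Smagp (chr15:100634147-100637470) from 75 and 74.9 to 176 and 175. Across these 10 regions the gain ran from 1.21 to 1.65 on the log2 scale.

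**Figure D1:**
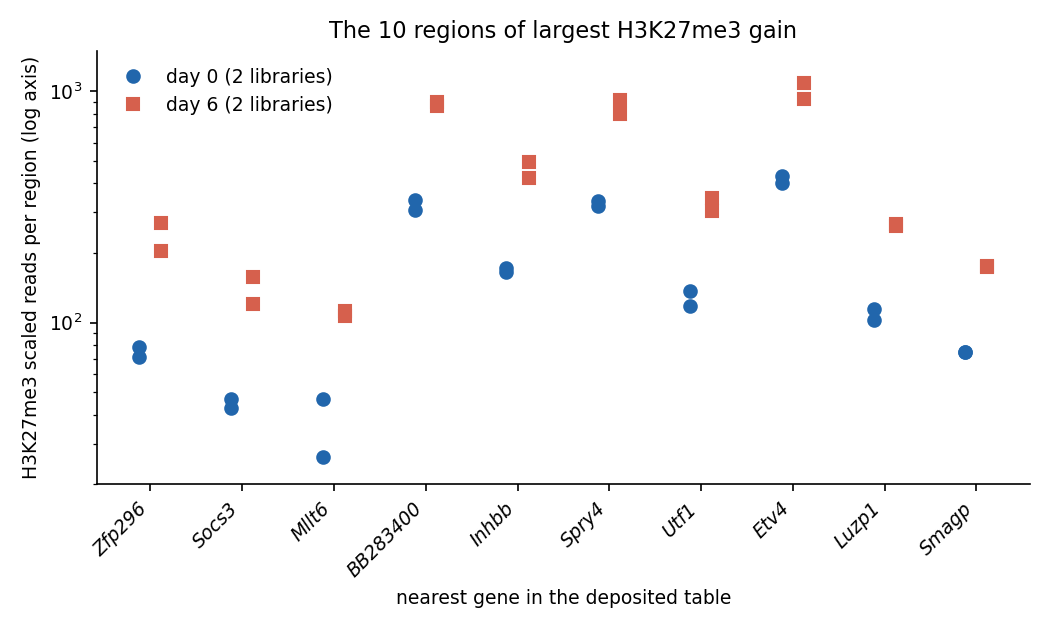
H3K27me3 scaled reads (vertical axis, log scale) in the 10 regions of largest gain, named by the nearest gene in the deposited table, with 1 point for each library of day 0 and day 6. In every region both day 6 points lie above both day 0 points, as the rule requires, and the Zfp296 region goes from 71 and 78.8 to 270.4 and 204.0.

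Position and base composition were not used by the rule. A gene start within 1 kb was found in 123 regions (49.0%), against 44.1% of all regions, and 46 regions lay more than 100 kb from any gene start. The authors' annotation placed 133 (53.0%) at promoters against 48.7% of all regions, and 66 (26.3%) in distal intergenic sequence against 31.2%. The median GC content was 47.4% against 42.8% of all regions, and the ratio of observed to expected CG dinucleotides was 0.27 against 0.22. Regions that lost the mark had a gene start within 1 kb in 71.8% and the authors' promoter label in 76.9%. Their median GC content was 46.8% and their ratio 0.30. These departures from all regions are therefore not particular to the gaining regions. Chromosome 7 held 27 of the gaining regions (10.8%, against 5.41% of all regions), and chromosome 11 held 19 (7.57%, against 5.77%). Chromosome 8 held 10 (3.98%, against 10.3%) and the X chromosome 1 (0.398%, against 0.362%). In the same order these 4 chromosomes held 6.78%, 7.79%, 1.21% and 0.911% of the regions that lost the mark. Of the 251, 27 lay within 100 kb of another.

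By position the regions were split into 2 classes. The 123 with a gene start had a median GC content of 50.8%, a median gain of 0.49 and a density that went from 23.6 to 36.0 scaled reads per kb. The 128 without one had a median GC content of 39.9%, a median gain of 0.36 and a density from 22.6 to 29.8. A gain of at least 0.58 was reached by 54 regions of the first class and 18 of the second. After the Socs3 region, the strongest regions without a gene start were nearest to Rbpj, the DNA-binding factor of Notch signalling (chr5:53464486-53469285), and Gli2, a Hedgehog effector (chr1:119074930-119079121). The Rbpj region went from 91 and 114.8 to 187 and 205, and the Gli2 region from 80.0 and 71.0 to 147 and 121.4.

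Of 34 pluripotency factors, 7 were at gaining regions (Fgf4, Klf4, L1td1, Nr5a2, Sox2, Tdgf1 and Utf1) and 1 at a region that lost the mark. The starts of Klf4 and Nr5a2 lie just beyond the region edge, so 5 of the 7 lie inside. Over all genes, 0.674% were at a gaining region and 11.4% at a losing region. Of 29 signalling genes of stem cells, 8 were at gaining regions (Bmp4, Etv4, Etv5, Fgf17, Fgf4, Inhbb, Spry4 and Tdgf1) and 7 at losing ones. Of 26 genes of the formative and primed epiblast, 5 were at gaining regions (Etv4, Etv5, Fgf17, Foxd3 and Spry4) and 11 at losing ones. None of the 39 HOX genes was at a gaining region and all 39 were at losing ones. Of the 32 genes of the neural progenitor list, which does not hold Sox2, none was at a gaining region and 21 were at losing ones. At gaining regions were 1 of 22 retinoic acid genes (Rarg), 1 of 31 mesoderm genes (Bmp4), 1 of 25 endoderm genes (Foxa3) and 1 of 31 neuron genes (Tubb3). There were 0 of 14 genes of PRC2 and the H3K27 demethylases and 0 of 12 of DNA methylation.

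RNA was lower at day 6 than at day 0 for most tested genes at the gaining regions. In the wild-type libraries of 2019, 123 of the 164 genes passed the count filter, and 97 of these (78.9%) fell at an edgeR adjusted p below 0.05, where 36.6% of all 13593 tested genes fell. A rise was called for 11 (8.94%), where 41.4% of all genes rose, and 15 were called in neither direction. The median log2 change was −2.47 for the 123 genes and 0.09 for all genes. A fall of at least 2-fold was called for 82 genes, where 18.3% of all tested genes had 1, and a rise of that size for 7, where 27.7% of all had 1. Both day 6 libraries lay below both day 0 libraries for 100 of the 123 genes and for 41.2% of all tested genes. They lay above them for 12 of the 123 and for 46.5% of all. These are bulk samples, in which fewer cells of a type and less RNA per cell cannot be told apart. The fall of the stem cell markers given above moves with these values. Sox2 and Fgf4 are among those markers and are themselves at gaining regions, so the marker sum shares values with these genes. The part of cell composition in the falls was not tested.

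The tested genes were well expressed in stem cells. At day 0, 122 of the 123 reached 1 CPM or more and 99 were above 10 CPM, while 54 were above 10 CPM at day 6. The count filter removes genes of low level, so the first of these counts is largely set by it. The same counts over all tested genes were not taken. The lower quartile at day 0 was 13.7 CPM for the 123 genes and 2.86 CPM for all tested genes. At day 6 it was 1.80 and 5.49 CPM. Genes that pass the filter through day 0 alone have to differ, so the counts describe the tested genes and not all 164. The other 41 genes were not tested. They reached at most 0.964 CPM in any library of 2019, 18 of them had 0 counts throughout, and they include 16 microRNA genes, whose mature products a polyA library is not made to measure. The median level of the tested genes was 48.2 CPM at day 0, 9.43 at day 3 and 7.96 at day 6. All tested genes had medians of 22.1, 26.0 and 28.0 CPM, and the genes at regions that lost H3K27me3 had 2.45, 9.19 and 15.1 CPM. The 1981 tested genes at losing regions had a median log2 change of 2.22, with 75.9% called higher and 9.74% lower.

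**Figure D2:**
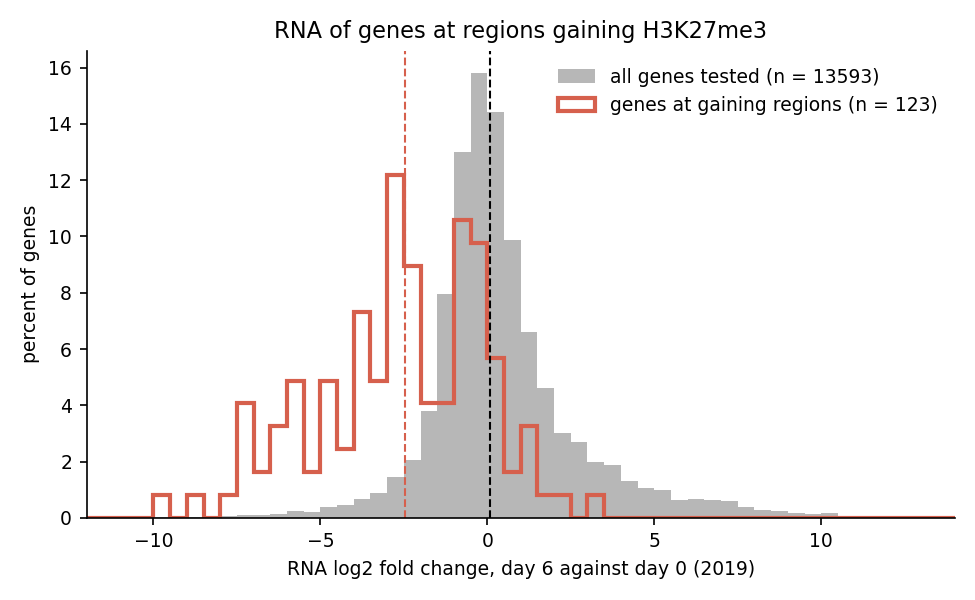
Distribution of the RNA log2 fold change of day 6 against day 0 in wild type of 2019 (horizontal axis) for the tested genes at gaining regions (outline) and for all tested genes (filled), as percent of genes (vertical axis), with dashed lines at the medians. The outline is centred at −2.47 and the filled distribution at 0.09.

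The median RNA fall was deeper in the classes of larger H3K27me3 gain. In the 17 regions with a gain of at least 1, 20 of 22 tested genes fell and 1 rose, with a median log2 change of −4.97. With a gain of 0.5 to 1, 39 of 41 fell and 2 rose, with a median of −2.97. With a smaller gain, 38 of 60 fell and 8 rose, with a median of −0.92. Spearman's rho between gain and RNA change was −0.45 across the 123 genes, which share the same libraries and in part the same regions and are not independent. The gain is also the value by which the regions were chosen, at 0.3 or more. The classes and rho are therefore a description and carry no test.

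The pluripotency genes at the gaining regions fell in both wild-type series, and several had fallen most of the way by day 3. Fgf4, the growth factor through which stem cells leave the naive state, had 269.7 and 250.9 CPM at day 0, 8.09 and 7.28 at day 3 and 0.517 and 1.65 at day 6. Its log2 change by day 6 was −7.97 ± 0.19 (SE, edgeR adjusted p = 1.8e-12). The 3 days do not overlap, and the step to day 3 is the larger part of the fall. Tdgf1, the coreceptor of Nodal, had 869 and 902 CPM at day 0, 15.2 and 14.6 at day 3 and 5.39 and 5.94 at day 6 (−7.29 ± 0.10, edgeR adjusted p = 1.33e-13). Utf1 had 532 and 524 CPM, then 27.2 and 22.8, then 2.44 and 3.75 (−7.44 ± 0.14, edgeR adjusted p = 3.66e-13). Both genes were highest at day 0 and lowest at day 6 in every library.

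L1td1, which encodes an RNA-binding protein derived from a LINE-1 element, had 1491 and 1197 CPM at day 0, 113 and 106 at day 3 and 21.4 and 24.0 at day 6 (−5.89 ± 0.12, edgeR adjusted p = 7.17e-13). Nr5a2, a nuclear receptor of the naive state, had 83.9 and 90.9 CPM, then 18.0 and 17.2, then 6.72 and 6.13 (−3.76 ± 0.12, edgeR adjusted p = 1.73e-11). In both genes the 3 days are separate and descend in order.
Sox2 and Klf4 stayed expressed. Sox2, a core pluripotency factor that is also a neural progenitor factor, had 955 and 973 CPM at day 0, 162 and 167 at day 3 and 131 and 115 at day 6 (−2.97 ± 0.08, edgeR adjusted p = 4.08e-12). Klf4, a naive pluripotency factor, had 194 and 266 CPM, then 29.9 and 37.0, then 55.0 and 58.5 (−2.03 ± 0.13, edgeR adjusted p = 1.61e-08). Klf4 was thus lowest at day 3, and its day 6 libraries lay above those of day 3. Of the whole list of 34 pluripotency factors, 33 fell and none rose by day 6, with a median of −4.58, so the 7 at gaining regions share their direction with the rest of the list.

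Zfp296, at the top of the H3K27me3 ranking, had 52.2 and 72.6 CPM at day 0, 3.64 and 3.98 at day 3 and 1.40 and 2.56 at day 6 (−5.03 ± 0.23, edgeR adjusted p = 5.76e-10). The other leading regions had less uniform RNA. Mllt6 had 213 and 200.1 CPM at day 0 and 116 and 110.4 at day 6 (−0.87 ± 0.07, edgeR adjusted p = 1.55e-07). Luzp1 had 192 and 194 CPM and then 156 and 149 (−0.34 ± 0.07, edgeR adjusted p = 0.000527). Both fell by little beside Zfp296, although their regions hold ranks 3 and 9, and in neither gene did the libraries of day 0 and day 6 overlap.

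Of the 8 genes of the signalling list at gaining regions, Fgf4 and Tdgf1 are also pluripotency factors of the list and are given above. The ligand Inhbb had 130.2 and 117 CPM at day 0, 1.13 and 1.20 at day 3 and 0.960 and 0.914 at day 6 (−7.02 ± 0.16, edgeR adjusted p = 1.26e-12). The ligand Fgf17 had 49.8 and 66.4 CPM, then 0.324 and 0.375, then 0.222 and 0.457 (−7.44 ± 0.28, edgeR adjusted p = 8.19e-11). Both changes were nearly complete by day 3, at −6.71 and −7.34 on the log2 scale. Among the feedback genes and effectors, Spry4 had 282 and 312 CPM, then 5.67 and 5.33, then 2.51 and 3.20 (−6.72 ± 0.12, edgeR adjusted p = 3.66e-13). Etv4 had 106 and 113 CPM, then 4.53 and 4.50, then 3.40 and 3.84 (−4.92 ± 0.12, edgeR adjusted p = 3.3e-12). For both, the fall by day 3 was nearly as large as that by day 6. Etv5, a close relative of Etv4, was at 0.321 and 0.281 CPM at day 0 and at 0 counts later, too low to be tested. Over the whole signalling list, 14 of 26 tested genes fell and 7 rose, with a median of −1.31, while all 7 tested genes at gaining regions fell.

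Bmp4 and Foxd3 did not follow a steady descent. Bmp4, a ligand that supports stem cell self-renewal together with LIF, had 46.1 and 58.01 CPM at day 0, 6.72 and 10.2 at day 3 and 18.9 and 18.9 at day 6 (−1.47 ± 0.15, edgeR adjusted p = 1.57e-06). Foxd3, a forkhead factor of the epiblast and later of the neural crest, had 50.3 and 43.0 CPM, then 1.13 and 2.10, then 34.4 and 30.3 (−0.51 ± 0.13, edgeR adjusted p = 0.00316). In both genes day 3 was lowest and day 6 lay between day 3 and day 0. Rarg, the gamma receptor of retinoic acid, descended at each step, with 253 and 262 CPM, then 94.2 and 96.7, then 35.4 and 41.7 (−2.74 ± 0.09, edgeR adjusted p = 2.01e-11). It was 1 of only 3 genes of the retinoic acid list that fell by day 6, while 16 of the 20 tested rose.

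**Figure D3:**
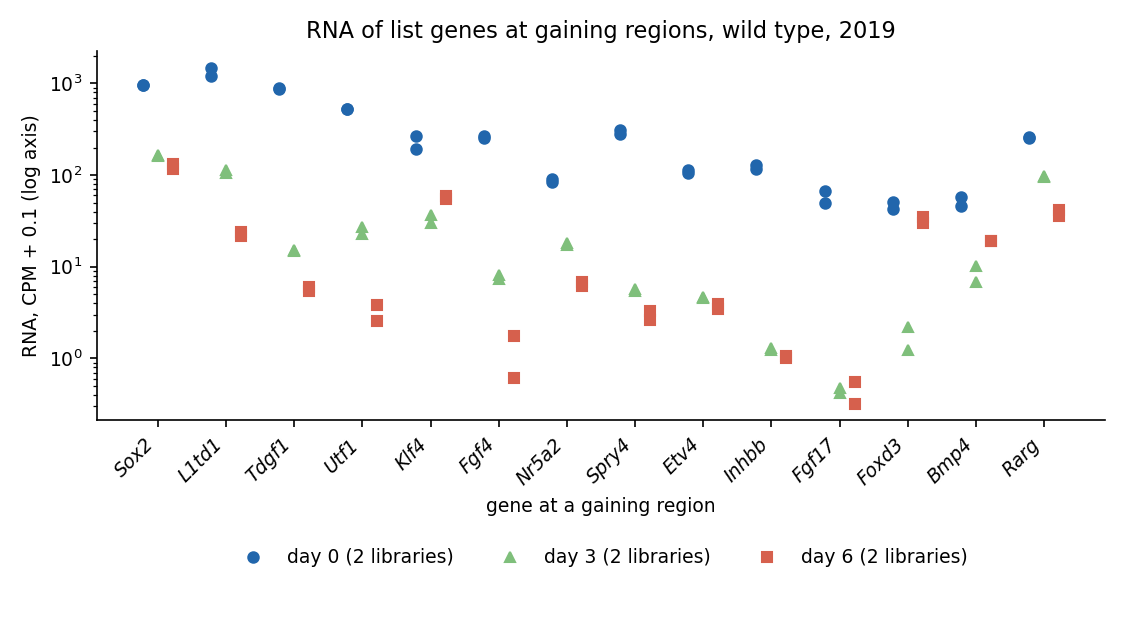
RNA level in CPM plus 0.1 (vertical axis, log scale) of the genes of the pluripotency, epiblast, retinoic acid and signalling lists whose start lies in a gaining region or within 1 kb of it, with 1 point for each wild-type library of 2019 at days 0, 3 and 6. Most genes descend from day 0, Fgf4 from 269.7 and 250.9 to 0.517 and 1.65 CPM, while Klf4, Bmp4 and Foxd3 are lowest at day 3.

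Beyond the lists, the deepest falls included the nephrin locus. Nphs1, which encodes the kidney slit protein nephrin, had 137 and 131 CPM at day 0 and 0.517 and 1.01 at day 6 (−7.49 ± 0.17, edgeR adjusted p = 1.35e-12). Its neighbour Kirrel2, which encodes a nephrin-like adhesion protein, had 46.1 and 44.8 CPM and then 0.665 and 0.274 (−6.50 ± 0.24, edgeR adjusted p = 6.77e-11). The antisense transcript Nphs1os had 6.91 and 9.09 CPM at day 0 and 0 counts at day 6, at least 32.3-fold lower with a floor of 3 counts per library. Because it is not given in the sources used here whether reads were counted by strand, Nphs1 and Nphs1os are uncertain as separate genes. Nkx6-3, a homeobox gene, had 5.30 and 3.28 CPM at day 0 and 0 counts at day 6, at least 17.3-fold lower with the same floor.

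Of the 11 genes that rose by day 6 of 2019, 8 were at regions with a gain of H3K27me3 below 0.5. Tagln3, a neuronal actin-binding protein gene, had 9.16 and 10.1 CPM at day 0, 4.21 and 6.15 at day 3 and 93.9 and 79.3 at day 6 (3.15 ± 0.15, edgeR adjusted p = 7.53e-10). Cux2, a homeobox gene of upper-layer neurons, had 8.20 and 6.65 CPM at day 0 and 36.4 and 38.7 at day 6 (2.37 ± 0.15, edgeR adjusted p = 1.23e-08). Their day 6 libraries lie far above those of day 0. Tubb3, the tubulin of neurons, had 159 and 170.0 CPM at day 0, 9.39 and 16.1 at day 3 and 400.3 and 365 at day 6 (1.22 ± 0.12, edgeR adjusted p = 1.06e-06). The others were Nrxn2 (1.81), Mir124a-1hg (1.50), Celsr3 (1.21), Rtn2 (1.02), Mmp23 (0.85), Pip5k1c (0.72), Atp1b1 (0.24) and Ccnd1 (0.19), as log2 changes. The summed neural markers, which include Tubb3, rose in the same libraries, and their part in these values was not tested. Without day 6 replicate 1 the calls of Mmp23 (0.79), Atp1b1 (0.15) and Ccnd1 (0.12) were lost, which left 8 rises, and Mmp23 was at 0.49 without day 0 replicate 2, again with no call.

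The day 3 libraries of 2019, which are compared with the same day 0 libraries, gave 109 of the 123 tested genes lower, where 33.8% of all genes were lower. They gave 6 higher, where 37.6% of all genes were higher, and a median log2 change of −1.96. The 6 higher genes became 3 without day 0 replicate 2. Between day 0 and day 3 Fgf4 changed by −5.08, Utf1 by −4.40, Tdgf1 by −5.89, Inhbb by −6.71 and Spry4 by −5.76 on the log2 scale. ChIP data for day 3 were not analysed here, so whether the RNA or the mark moved first was not tested.

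The wild-type libraries of 2020, with 1 library at day 0, gave a second measure. Of 128 tested genes, 97 fell, where 34.8% of all 14760 tested genes fell, and 10 rose, where 36% of all rose, with a median log2 change of −1.90. Among the 122 genes tested in both years, 96 fell in 2019 and 94 in 2020. The 84 that fell in both are 87.5% of the first and 89.4% of the second. Fgf4 changed by −9.30, Utf1 by −7.74, Spry4 by −7.33, Inhbb by −7.09, Tdgf1 by −6.30, Sox2 by −4.79 and Klf4 by −2.76. Of the genes that rose in 2019, 5 rose in both years and 3 fell in 2020. Foxd3, at −0.51 in 2019, was at −3.45 in 2020. Tubb3, which rose in 2019, had 94.2 CPM at day 0 of 2020 and 65.3 and 31.7 at day 6, a log2 change of −0.96 that did not pass the test (edgeR adjusted p = 0.121). The 6 neural markers summed to 174.5 CPM at day 0 of 2020 and to 319.4 and 223.7 at day 6, a smaller step than in 2019, and their part in the values of the 2 years was not tested.

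H3.3 was lower at day 6 over most gaining regions that its own table covered. The H3.3 differential table comes from another antibody and other libraries, and 166 of the 251 regions (66.1%) overlapped at least 1 of its rows, against 46.9% of all H3K27me3 regions. These regions met 159 H3.3 rows, of which 140 fell at a limma adjusted p below 0.05, where 43.7% of all 14812 rows fell. A rise was called for 4 rows, where 18.4% of all rows rose. The median log2 change was −0.45, against −0.12 over all rows. When the medians of the libraries were set equal, the median was −0.37, with 134 rows lower and 7 higher. The H3.3 rows at gaining regions had a median length of 69.0 kb and reached 701.605 kb, so an H3.3 value describes a wider stretch than the H3K27me3 region inside it.

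Positions were then set beside the H3.3 calls. Of the 123 regions with a gene start, 107 overlapped an H3.3 row, 103 of these (96.3%) a row that fell and none a row that rose. Of the 128 without a gene start, 59 overlapped a row, 44 of these (74.6%) a row that fell and 4 a row that rose. All 17 regions with a gain of at least 1 overlapped a row that fell, as did 59 of the 62 covered regions with a gain of 0.5 to 1 and 71 of the 87 with a smaller gain. Of the 97 genes with lower RNA in 2019, 92 were at a gaining region with an H3.3 row, and for all 92 that row fell. In all, 116 tested genes had such a row. Among gaining regions with a gene start and a row, the share that fell was already 96.3%. The count of 92 therefore does not set the genes with lower RNA apart from other genes at these regions. The differences between the position classes and between the gain classes were not tested.

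Fgf4 had the deepest fall of H3.3 among the rows named here, with a signal of 1194 and 1180.0 at day 0 and 531 and 509.7 at day 6 in a 29.5 kb row (−1.19 ± 0.07, limma adjusted p = 1.4e-60). At Inhbb the signal was 3925 and 4001 and then 2472 and 2310.4 (−0.73 ± 0.06, limma adjusted p = 3.03e-36). At Utf1 it was 847 and 832 and then 589 and 502 (−0.63 ± 0.07, limma adjusted p = 2.02e-16). In each of these rows both day 6 libraries lie below both day 0 libraries. Limma takes the spread of a row in part from a trend over all rows. These SE and p-values therefore do not rest on the row's own 2 libraries per day alone. Klf4 went from 1202 and 1170.0 to 877 and 835 (−0.47 ± 0.07, limma adjusted p = 6.52e-12), and Zfp296 from 3104 and 3368 to 2408 and 2365 in a 97.0 kb row (−0.44 ± 0.06, limma adjusted p = 8.38e-14). The values for Foxd3, Tdgf1, Spry4, Sox2, L1td1 and Nr5a2 were −0.83, −0.83, −0.80, −0.57, −0.53 and −0.31. The 4 rises include a 10.0 kb row nearest to Prkg1, with 169 and 170 at day 0 and 282 and 282 at day 6 (0.73), and a row nearest to Gpc6 (0.58), and all 4 regions concerned hold no gene start.

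**Figure D4:**
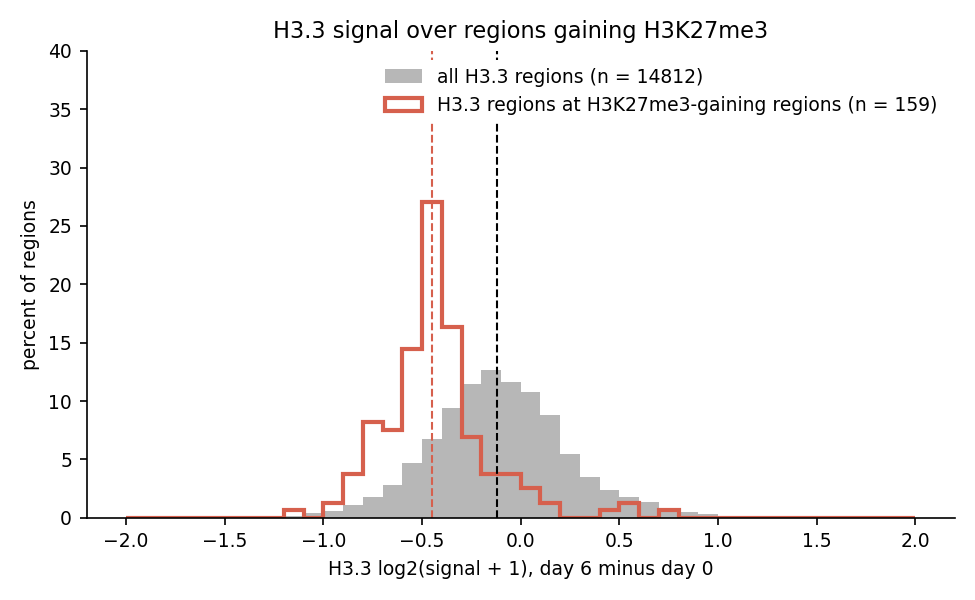
Distribution of the log2 change in H3.3 signal from day 0 to day 6 (horizontal axis) over the 159 H3.3 rows that overlap a gaining region (outline) and over all 14812 rows (filled), as percent of rows (vertical axis), with dashed lines at the medians of −0.45 and −0.12. The outline lies almost wholly below 0.

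H3.3 peaks were called at more gaining regions at day 0 than at day 6. At day 0 they overlapped 60.2% and 66.1% of the gaining regions in the 2 libraries, against 39.8% and 42.7% of all H3K27me3 regions. At day 6 they overlapped 45.4% and 36.3%, against 39.1% and 33.6%. In the class with a gene start the shares were 85.4% and 91.1% at day 0 and 52.8% and 43.1% at day 6. The peak shares of all regions with a gene start were not computed. Rows of the H3.3 table were more common at gene starts in general, at 58.7% of all regions with one and 37.5% of those without. For the gaining regions these shares were 87% and 46.1%. All 17 regions with a gain of at least 1 had an H3.3 peak in both day 0 libraries, and 7 of them had 1 in neither day 6 library. Of all H3K27me3 regions, 31.5% had a peak in both day 0 libraries. A peak in both day 0 libraries and in neither day 6 library was found at 6.53% of all. H3K27me3 peaks, which share libraries with the rule, overlapped 24.7% and 19.5% of the regions at day 0, against 76.9% and 78.3% of all regions. At day 6 they overlapped 94.4% and 93.6%, against 63.7% and 62.0% of all.

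H3.3K27me3 peaks were scarce at the gaining regions on both days. They overlapped 32 regions in each of the day 0 libraries, 12.7% (exact 95% interval 8.89% to 17.5%), against 51.8% and 45.4% of all H3K27me3 regions. At day 6 they overlapped 66 regions in replicate 1, 26.3% (21.0% to 32.2%), and 33 in replicate 2, 13.1% (9.23% to 18.0%), against 41.1% and 28.1% of all. The count of replicate 2 of day 6 is thus close to the counts of day 0, and replicate 1 alone stands higher. The intervals cover counting error over regions only. The day 6 libraries held 30.45 and 34.20 M tags and those of day 0 held 71.13 and 49.87 M, and the part of depth in these shares was not tested. Gaining regions were also shorter (median 9.96 kb against 15.6 kb of all regions) and held less H3K27me3 at day 0. The part of length and of that low starting level was not tested either.

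No H3.3K27me3 peak in any of the 4 libraries was found at 142 gaining regions (56.6%), against 21.9% of all regions. A peak in both day 6 libraries and in neither day 0 library was found at 13 (5.18%), against 4.22% of all regions. None of the 17 regions with a gain of at least 1 had such a peak at day 0, and 4 had 1 in a single day 6 library. These are Utf1 in replicate 2 and Inhbb, Spry4 and Etv4 in replicate 1. Zfp296, Klf4 and Fgf4 had none in any library. At day 6 such peaks overlapped 35.2% and 17.2% of the regions without a gene start and 17.1% and 8.94% of those with one, a difference that was not tested. The strength of H3.3K27me3 at each region was not analysed here.

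**Figure D5:**
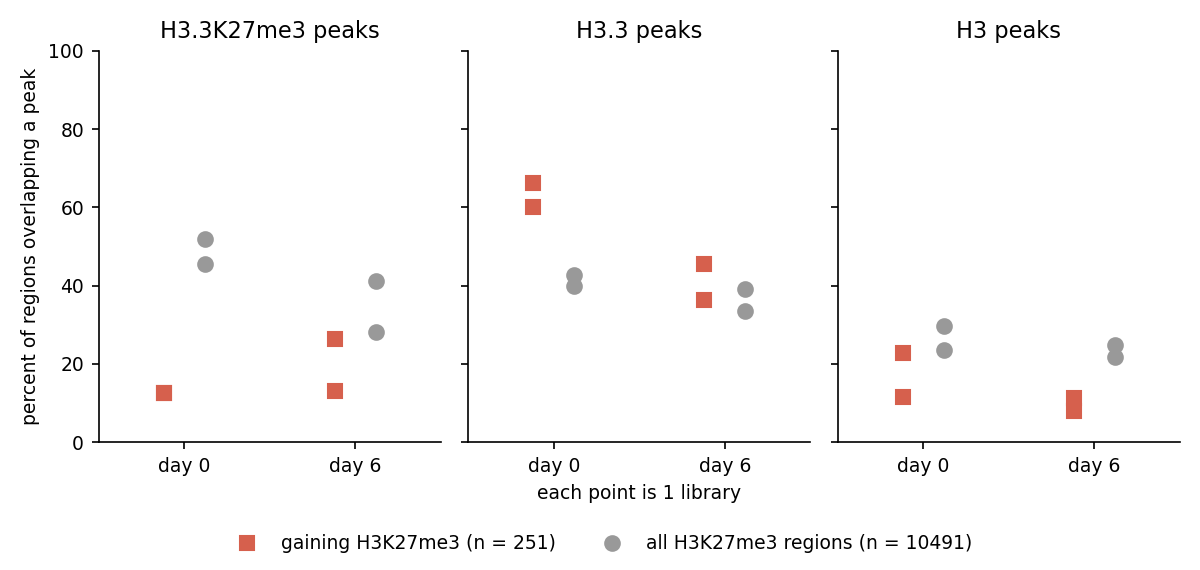
Percent of regions overlapping a filtered peak (vertical axis) in each library of day 0 and day 6, for gaining regions and for all regions of the H3K27me3 table, with 1 panel for each of H3.3, H3.3K27me3 and H3 and 1 point for each library. For H3.3 the gaining regions lie above all regions at day 0 (60.2% and 66.1% against 39.8% and 42.7%), and for H3.3K27me3 they lie below them on both days.

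Few of the gaining regions overlapped an interval listed for H3, which does not measure how much H3 they hold. Only 31 of the 251 (12.4%) overlapped a row of the H3 table, against 24.7% of all H3K27me3 regions, and of those 31 rows 12 fell, where 34.3% of all rows fell, and 10 rose, where 18% of all rows rose, by limma at an adjusted p below 0.05. The median log2 change was −0.06. H3 peaks overlapped 22.7% and 11.6% of the regions at day 0 and 7.97% and 11.2% at day 6, against 29.6%, 23.5%, 21.7% and 24.9% of all regions. At these few rows similar numbers fell and rose.

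Few of the genes at gaining regions differed between the H3.3K27A line and wild type at day 6. Of 128 tested genes, 1 was lower, where 0.908% of all genes were lower, and 6 were higher, where 1.13% of all were higher (edgeR adjusted p below 0.05). The lower gene was Pstpip2 (−1.50 ± 0.26, edgeR adjusted p = 0.0234). Nr5a2 was among the higher genes, with 9.36 and 10.3 CPM in H3.3K27A and 5.39 and 5.89 in wild type (0.80 ± 0.14, edgeR adjusted p = 0.0263). Notum, a secreted inhibitor of Wnt, had 10.97 and 7.31 CPM and 4.16 and 3.53 in wild type (1.25 ± 0.19, edgeR adjusted p = 0.0168). Both genes stayed well below their wild-type level of day 0, which was 84.4 CPM for Nr5a2 and 54.3 for Notum. Of the deepest falls, Fgf4 had 0.236 and 1.03 CPM in H3.3K27A at day 6 against 0.385 and 0.785 in wild type, and Utf1 had 3.70 and 3.38 against 2.16 and 3.92. In both genes the libraries of the lines overlap. Leaving out H3.3K27A replicate 1, wild-type replicate 1 or wild-type replicate 2 left 0 genes higher, and leaving out H3.3K27A replicate 2 left 1. The call of Nr5a2 was lost without any 1 of the 4 libraries, at values from 0.73 to 0.87. The count of lower genes was 1 without wild-type replicate 2 and 0 in the other 3 fits.

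The H3.3A knockout line had more differences. Against the same wild-type libraries at day 6, 10 of the 128 genes were lower, where 4.42% of all genes were lower, and 18 were higher, where 6.98% of all were higher. Tdgf1 had 89.2 and 52.4 CPM in the knockout, 13.2 and 22.5 in wild type and 28.0 and 37.9 in H3.3K27A (knockout against wild type 1.99 ± 0.28, edgeR adjusted p = 0.00393). Klf4 had 286 and 152 CPM in the knockout, 88.2 and 98.4 in wild type and 75.6 and 88.2 in H3.3K27A (1.23 ± 0.24, edgeR adjusted p = 0.0136). L1td1 had 148 and 64.7 CPM, 36.2 and 49.0 and 39.3 and 56.1 in the same order (1.32 ± 0.32, edgeR adjusted p = 0.0324). For all 3 genes both knockout libraries lie above both wild-type libraries, and the knockout duplicates lie further apart in CPM than those of the other lines. Etv4 had 8.54 and 12.2 CPM in the knockout and 4.89 and 4.40 in wild type (1.17 ± 0.17, edgeR adjusted p = 0.00399). Bmp4 had 7.12 and 10.8 CPM and 15.1 and 15.4 in wild type (−0.76 ± 0.17, edgeR adjusted p = 0.0236). Without wild-type replicate 1 the counts were 1 lower and 2 higher, and without wild-type replicate 2 they were 1 and 4. Without knockout replicate 2 they were 31 and 31, and without knockout replicate 1 they were 13 and 26. The calls of Klf4, L1td1 and Bmp4 were lost without either wild-type library, at 1.15 and 1.31, 1.11 and 1.55, and −0.78 and −0.75, while that of Tdgf1 was kept.

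The 2 edited lines were also compared with each other at day 6. Of the 128 genes, 18 were lower in H3.3K27A than in the knockout, where 9.64% of all genes were lower, and 21 were higher, where 9.03% of all were higher. Etv4 was lower by 2.06 ± 0.19 on the log2 scale, with 2.79 and 2.16 CPM in H3.3K27A (edgeR adjusted p = 0.000198). Klf4 (−1.42), L1td1 (−1.16) and Tdgf1 (−1.10) were lower too, and Bmp4 (1.06), Nr5a2 (0.54) and Rarg (0.50) were higher. Leaving out either H3.3K27A library gave 6 or 8 lower genes and 11 higher ones. Without knockout replicate 1 there were 31 lower and 28 higher, and without knockout replicate 2 there were 25 and 33. The call of L1td1 was lost in 3 of these 4 fits, with a value of −0.43 without knockout replicate 1, and that of Tdgf1 without either H3.3K27A library (−0.90 and −1.34). The summed endoderm markers were 1263 and 776.7 CPM in the knockout at day 6, 493.5 and 536.8 in H3.3K27A and 550.2 and 614.7 in wild type, and their part in these differences was not tested.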

How the data were processed

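RNA and chromatin were analysed from processed files. Per the submitters' processing notes, the authors used STAR 2.5.2a, HTSeq, DESeq2, DiffBind, MACS2 and deepTools with build mm10. The deposited RNA values are raw read counts per gene symbol, with 35.3% to 50.8% of reads in 2019 and 22.5% to 27.7% in 2020 in categories that name no gene, which were left out. The authors' deposited differential tables give for each region and library a signal (a scaled read number), a log2 difference and a p-value. The region table's name writes H3.1K27me3 for the antibody labelled H3K27me3, whose specificity is not given. The deposited peaks carry a fold enrichment and a −log10 p-value, called with MACS2 2.2.6 without a control library, per the file headers. How the filtered peak lists were made from these calls is not given in the sources used here.

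The gene starts are those of RefSeq for GRCm38, and 24321 of 24465 symbols were matched. RNA was tested in R 4.3.3 with edgeR 4.0.16 (filterByExpr, TMM, quasi-likelihood F-test, Benjamini-Hochberg over all genes, called at an adjusted p below 0.05), with 2019 and 2020 fitted apart. The single wild-type library of day 0 in 2020 was taken to have the same spread as the rest. CPM are counts scaled to the TMM library size in the usual unit. H3.3 and H3 were tested with limma 3.58.1 (trend) on log2(signal + 1) over all rows, day 6 minus day 0, so fold changes of low rows are understated. The spread of each row was drawn in part from all rows, so very small p-values do not measure the row's own replicates alone. Overlap means at least 1 bp. The scripts were tested on simulated data. DESeq2 1.42.0, Python 3.11.15, pandas 2.3.3, pysam 0.24.0, scipy 1.17.1 and matplotlib 3.10.9 were also used.

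Named regions were the 10 of largest gain with at least 20 scaled reads at day 6 and those beside the threshold. Named genes were those of the pluripotency, epiblast, retinoic acid, DNA methylation, PRC2 and signalling lists with a start within 1 kb of a gaining region, and the 10 deepest falls and 10 largest rises in 2019. Other genes named were chosen after their values were seen, and 1 gene is not reported here. The regions and lists were chosen with earlier results of these data known. The RNA labels do not say that duplicates came from separate cultures, so p-values measure the spread between these samples, which may be technical. The alternatives tried were other normalizations and tests, no count filter, other windows, overlaps, pseudocounts and peak thresholds, a replicate block, and leaving out each library.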

Additional observations from a re-analysis of the deposited data

Results flagged for a closer look

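Of the 11 genes at gaining regions that rose by day 6 in the wild-type series of 2019, 3 fell in that of 2020, with every day 6 library on the same side of day 0 within each series. The difference between the series was not tested, and the year of sequencing and any other difference between the series cannot be told apart. Ccnd1, a cyclin of the G1 phase, had a log2 change of 0.19 in 2019 and −2.69 in 2020. Its 2019 libraries were at 236 and 237 CPM at day 0, 16.2 and 19.14 at day 3 and 283 and 256 at day 6, so a deep fall at day 3 was followed by a return. The call of 2019 was lost without day 6 replicate 1 (0.12). In 2020 it had 460 CPM at day 0 and 79.7 and 62.3 at day 6. Celsr3, an adhesion receptor of neurons, was at 1.21 in 2019 and −1.75 in 2020, and Rtn2, a reticulon, at 1.02 and −1.2. Marker levels also differed between the series. The summed neural markers went from 236.6 and 237 CPM at day 0 to 1216 and 1065 at day 6 in 2019, and from 174.5 to 319.4 and 223.7 in 2020. At day 0 the endoderm markers summed to 4.178 and 4.779 CPM in 2019 and 40.21 in 2020, and the fibroblast markers to 14.46 and 15.28 and 356.1. The part of these markers in the 3 genes was not tested.

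The H3.3K27A line and the H3.3A knockout differed at day 6 in 9 named genes, by the edgeR test of that difference. H3.3K27A was lower for Etv4 (−2.06), Klf4 (−1.42), L1td1 (−1.16), Tdgf1 (−1.1), Atp1b1 (−0.93) and Rtn2 (−0.57). It was higher for Bmp4 (1.06), Nr5a2 (0.54) and Rarg (0.5). The knockout duplicates stand apart for several genes, such as Tubb3 with 42.1 and 116 CPM, and the part of that spread in these values was not tested.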

How the results depend on the processing

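Among the wild-type day comparisons, the counts of called genes and of H3.3 and H3 rows moved by at most 1.5 times under every alternative run, except that the genes higher at day 3 (6) became 3 with DESeq2 and between 3 and 5 when each library was left out, and the H3.3 rows higher (4) became 7 with library medians set equal. The 2019 falls ranged from 97 to 98 over the libraries left out.
For H3.3K27A against wild type, the single lower gene became 4 with DESeq2, 2 with DESeq2 size factors, 6 with no count filter and 0 to 1 on leaving out each library, and the 6 higher genes became 11 with no count filter and 0 to 1 on leaving out each library. For the knockout against wild type these ranges were 1 to 31 lower and 2 to 31 higher, and for H3.3K27A against the knockout 6 to 31 lower and 11 to 33 higher. Without knockout replicate 2 the differences from wild type of Celsr3, Mir124a-1hg and Sox2 turned round, with log2 changes from −0.97 to 0.97, from −1.19 to 1.82 and from −0.57 to 0.56 over the libraries left out. The cause of these changes was not tested beyond the loss of samples itself.
Same-numbered libraries are not shown to be paired. Among the groups compared, correlations of their deviations ran from −0.36 to 0.14. The first was for the knockout and wild type at day 6, and the second for H3.3K27A and wild type at day 6. With a replicate block H3.3K27A against wild type had 0 lower and 3 higher genes, while the 97 falls and 11 rises of 2019 were still 97 and 11. With the knockout numbers crossed, an alternative added after the data were seen, that block gave 12 lower and 20 higher against wild type.
The number of gaining regions was 72 with a gain of 0.58, 1028 with equal medians and 283 to 315 on leaving out each library, with 189 to 228 of the 251 among them. A window of 5 kb gave 55.4% with a gene start. H3.3K27me3 shares at day 0 and day 6 were 5.18%, 7.17%, 15.1% and 7.57% with an overlap of at least 50% of the region (all regions 26.6%, 28.0%, 23.1% and 13.9%), 1.99%, 2.39%, 4.78% and 1.99% with an enrichment of at least 3 (9.12%, 8.45%, 11.3% and 8.69%), and 17.1% in day 6 replicate 1 with equal numbers of peaks (27%).
These data limit the account in several ways. Each group has 2 libraries at most. Weak regions rest on few reads, since the leanest gaining region had a mean of 36.6 scaled reads at day 0. Short regions were set against long H3.3 rows, RNA is bulk, and the edited lines had no ChIP data analysed here.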

Other observations

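Further genes at gaining regions, chosen after their values were seen, also changed by day 6 of 2019. Lrrc2 shares its region with Tdgf1 and had 76.2 and 78.4 CPM at day 0, 1.38 and 1.95 at day 3 and 1.77 and 1.37 at day 6 (log2 change −5.59 ± 0.16, edgeR adjusted p = 1.07e-11). Its course was close to that of Tdgf1 at day 3, where both had fallen far. Tcea3, a transcription elongation factor gene, had 117 and 105 CPM at day 0 and 1.48 and 2.011 at day 6 (−6.00 ± 0.15, edgeR adjusted p = 3.29e-12). Dmtn, which encodes the actin-bundling protein dematin, shares its region with Fgf17 and had 159 and 151 CPM and then 8.86 and 7.41 (−4.24 ± 0.11, edgeR adjusted p = 4e-12). Tmc6 and Tmc8, neighbouring genes of channel-like membrane proteins in a single region, had log2 changes of −2.51 and −3.08. Arhgap26, whose start lies in the Spry4 region, had 12.5 and 10.5 CPM at day 0 and 11.8 and 11.1 at day 6 (0.01 ± 0.16, edgeR adjusted p = 0.944), so neighbours in a region did not always move together. Foxa3, the endoderm factor at a gaining region, had a log2 change of −0.69 in 2019 that did not pass the test (edgeR adjusted p = 0.0698) and rose by 0.96 in 2020 (edgeR adjusted p = 0.0125).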
